A study of Mus musculus with 31 samples.

Results

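Around the fluid-filled canal in the middle of the spinal cord sits a layer of ependymal cells, most of which beat motile cilia. They are held to be the resident neural stem cells of this tissue, quiet in the intact cord and able to divide and make mainly astrocyte-like progeny after injury. Oligodendrocytes, which wrap axons in myelin, come mostly from a separate progenitor that carries PDGF receptor alpha. Olig2 and Olig1, named with them below, are transcription factors of that lineage. Foxj1, a transcription factor needed for motile cilia, marks the ependymal cells.

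The cells compared here are the ependymal-like cells of 3 single-cell RNA libraries, coded 020, 073 and 019. A cell of the authors' cell table was kept unless it held at least 4 UMIs (counted RNA molecules) of Mag, Mog and Cldn11 together, or at least 3 UMIs of C1ql1 and Pdgfra together. Mag, Mog and Cldn11 encode myelin-sheath proteins, and C1ql1 and Pdgfra mark oligodendrocyte progenitors. The rule kept 278 of 337 cells of library 020, 218 of 360 of library 073 and all 339 of library 019, which makes 835 of the 3285 cells in the table. The series holds 6 single-cell RNA samples of mouse spinal cord on a C57BL/6 background, labelled Foxj1_tdT or Foxj1_Olig2_tdT and, for each, Uninj, 2wpi or 4wpi. Neither the codes of the cells nor any label says which library is which sample, so the genotype and time of libraries 020, 073 and 019 are not known here. The labels do not expand tdT or wpi, and they give no age, sex, number of animals or driver of the Olig2 allele. The members were chosen by measured values, the UMIs of those 5 genes in the cells compared. Each code is 1 library, so there is no replicate and no test: every difference below is one between these libraries, and intervals cover counting error only.

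Cells removed by the rule were 59 of 337 in library 020 (17.5%, exact Clopper-Pearson 95% interval 13.6 to 22.0%), 142 of 360 in library 073 (39.4%, 34.4 to 44.7%) and 0 of 339 in library 019, which allows a share of up to 1.08%. The myelin sum removed 31 cells of library 020 and 101 of library 073, and the progenitor sum removed 31 and 46, with 3 and 5 cells removed by both. Few cells lay near the limit in library 020, and more did in library 073. In library 020, 3 cells had a myelin sum of 3 UMIs and 0 had exactly 4. The median cell removed by this sum had 33 UMIs. In library 073, 36 cells had a sum of 2, 11 a sum of 3 and 7 a sum of 4, against a median of 96. Progenitor sums of 1, 2 and 3 UMIs were found in 10, 3 and 1 cells of library 020 and in 25, 7 and 3 of library 073. The myelin sum was 0 in 252 of 278 kept cells of library 020, 108 of 218 of library 073 and 338 of 339 of library 019. No cell of library 019 came within 1 UMI of either limit.

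The kept cells answered to the ependymal label. The 16 ciliated-cell markers made up a median of 181, 162 and 187 of every 10000 UMIs in kept cells of libraries 020, 073 and 019, and 1.69 and 4.31 in the removed cells of libraries 020 and 073. Some removed cells were rich in these markers too. With 2000 UMIs drawn from each cell, 9 of 142 removed cells of library 073 (6.34%) held at least 10 UMIs of them. Under 20 of every 10000 UMIs fell on these markers in 8 kept cells of library 020, 8 of library 073 and 2 of library 019. These few cells carry RNA of other types. Where leaving them out ends a call or moves a value by over 1.5 times, the value without them is given too. Kept cells held 1535558, 1626880 and 1771956 UMIs in all, with medians of 5145.5, 6843.5 and 5090 per cell. The removed cells were deeper, with medians of 8154 UMIs in library 020 and 8824 in library 073. No cell barcode was shared among the kept cells of the 3 libraries.

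Interferons are secreted warning signals that switch on a set of antiviral genes through transcription factors such as Irf9, and raise class I MHC, the cell-surface molecule that shows peptides to T cells. Many genes of this kind carry in their promoters a short motif to which such factors bind, GAAANNGAAA or its reverse complement TTTCNNTTTC. Promoters of 4 genes of this set are shown, chosen among those past 2-fold higher in both library 020 and library 073 than in library 019. All 4 hold the motif, which not every such gene does. They are RefSeq sequences of build GRCm38.p6, the 250 bases before the transcript start, 5′ to 3′ on the gene's strand, with matches to the motif in capitals. The windows are chr4:156200819-156201068 on the minus strand for Isg15, chr19:34583279-34583528 on the plus strand for Ifit3, chr8:71537473-71537722 on the minus strand for Bst2 and chr2:122147437-122147686 on the plus strand for B2m.
Isg15: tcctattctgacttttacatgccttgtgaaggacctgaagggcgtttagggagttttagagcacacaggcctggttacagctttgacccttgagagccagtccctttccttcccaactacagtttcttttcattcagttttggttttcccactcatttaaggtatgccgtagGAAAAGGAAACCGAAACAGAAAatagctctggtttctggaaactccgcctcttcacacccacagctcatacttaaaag
Ifit3: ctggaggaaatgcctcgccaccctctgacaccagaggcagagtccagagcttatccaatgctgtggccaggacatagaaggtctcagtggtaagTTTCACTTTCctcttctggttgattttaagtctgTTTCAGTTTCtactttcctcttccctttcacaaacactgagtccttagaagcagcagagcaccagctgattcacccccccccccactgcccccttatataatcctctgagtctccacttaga
Bst2: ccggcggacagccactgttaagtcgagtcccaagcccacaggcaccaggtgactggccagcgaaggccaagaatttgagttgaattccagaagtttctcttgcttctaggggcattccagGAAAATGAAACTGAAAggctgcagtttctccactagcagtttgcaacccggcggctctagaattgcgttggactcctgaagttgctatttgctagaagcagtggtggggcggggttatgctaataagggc
B2m: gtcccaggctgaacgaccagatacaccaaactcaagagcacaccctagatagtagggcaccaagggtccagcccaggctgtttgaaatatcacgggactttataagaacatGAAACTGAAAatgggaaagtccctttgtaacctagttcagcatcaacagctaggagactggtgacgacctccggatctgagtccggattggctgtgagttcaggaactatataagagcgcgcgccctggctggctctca

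Isg15 held 3 overlapping matches that start between 78 and 66 bases before the transcript start, Ifit3 held 2, Bst2 held 2 overlapping ones and B2m held 1. Of 39 interferon-list genes measured, 33 matched the promoter table, and 14 of them (42.4%) held the motif in this window on either strand. H2-K1 and Oasl2, also past 2-fold higher in both libraries than in 019, held 0 matches. Of the 15 matched list genes higher in library 020, 8 (53.3%) held the motif, and of the 21 higher in library 073, 10 (47.6%) did. Among the matched list genes not past the limit, 6 of 18 (33.3%) held it for library 020 and 4 of 12 (33.3%) for library 073. Over all 27025 genes with a promoter listed, 936 (3.46%) held it, and of the 7424 matched genes that entered the comparison 222 (2.99%) did. A match is a run of letters only, and the libraries do not measure binding.

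Of the 39 measured genes of the interferon list, 16 were higher in library 020 than in 019 and 26 in library 073 than in 019, with the others not past the limit. A gene counted as higher or lower when its ratio passed 2-fold and the exact 95% counting interval excluded 1. With library 020 over 019, 251 of 9609 genes (2.61%) were higher and 65 (0.676%) lower. With library 073 over 019, 671 (6.98%) were higher and 111 (1.16%) lower. The rule that chose the cells used this contrast, so these shares are printed as background only. The 39 interferon genes are those with at least 30 UMIs over the 3 libraries, and 0 were lower in either comparison. The floor is on the sum, so a gene could enter through library 073 alone, as Ifit3b and Irf7 did. Genes that enter this way can hardly be lower in library 073, and they are part of its counts and median. With library 073 over 020, 21 of the 39 were higher and 0 lower, where 5.11% of all genes were higher. Over library 019 their median log2 ratio was 1.01 for library 020 and 2.07 for library 073, beside medians over all genes of 0.0030 and 0.12. The comparisons over library 019 share that library. The list's other 6 genes had fewer UMIs and were not compared.

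**Figure D1:**
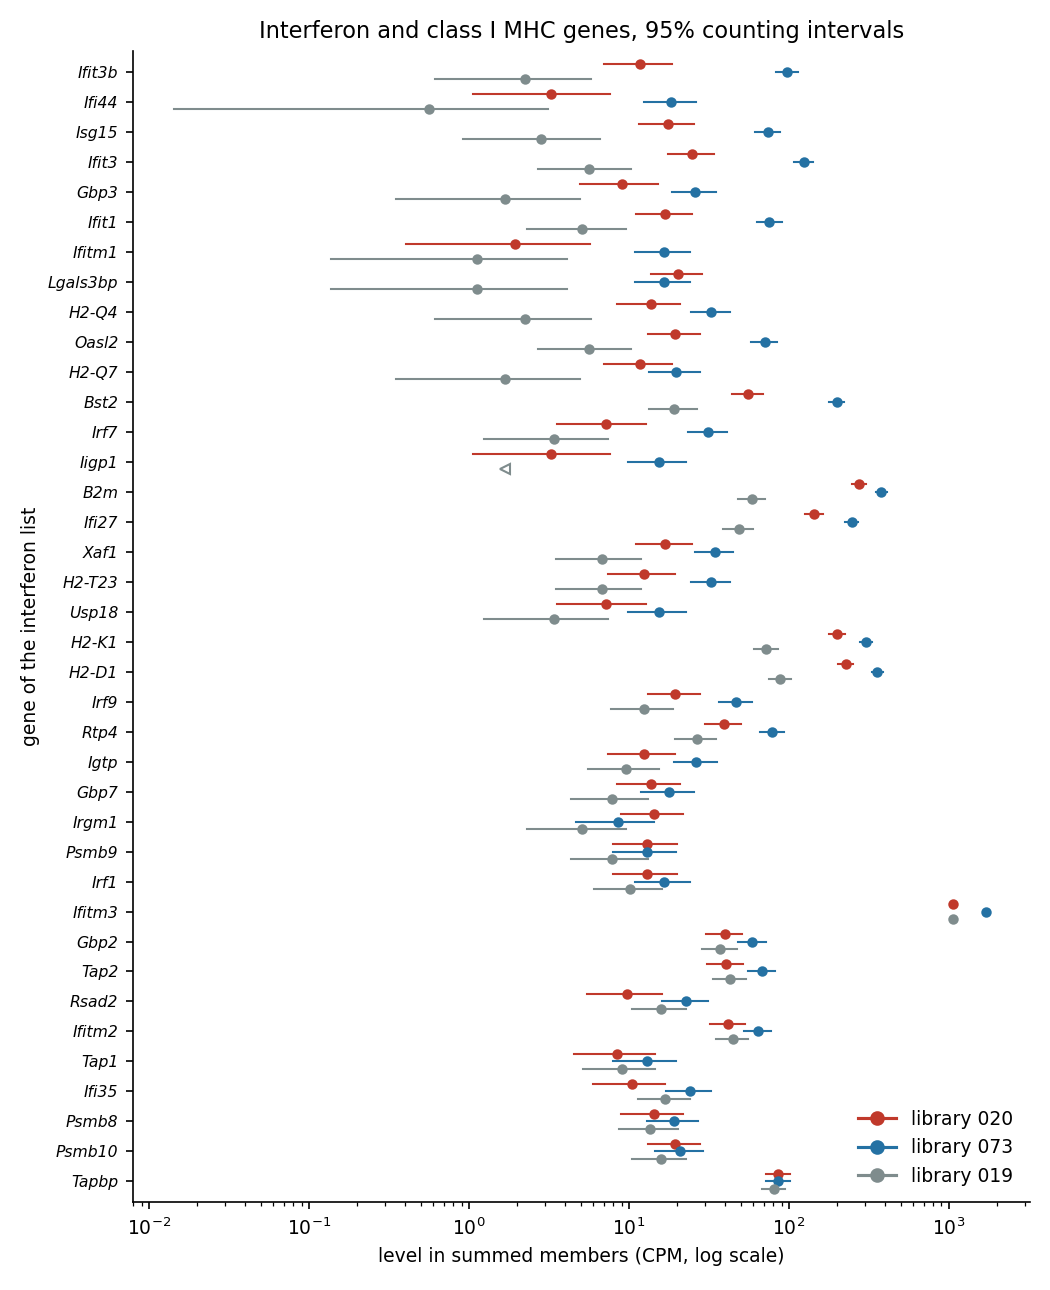
Level (CPM, log axis) of 38 interferon-list genes in kept cells of libraries 020, 073 and 019, with exact Poisson 95% intervals as lines; the open triangle marks the 3-UMI limit for a gene with no UMI in library 019. For Ifit3 the 3 levels are 24.7, 124 and 5.64 CPM, and for Tapbp, at the bottom, 86.0, 86.1 and 80.7 CPM.

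Among the antiviral effectors, Isg15, a ubiquitin-like protein that is attached to other proteins, had 27 UMIs (17.6 CPM) in library 020, 120 (73.8 CPM) in library 073 and 5 (2.82 CPM) in library 019. CPM is the UMIs of a gene over those of all genes in the summed cells of a library, scaled to 1000000. The ratio was 6.23-fold for library 020 over 019 (95% counting interval 2.37 to 20.7) and 26.1-fold for library 073 over 019 (10.9 to 82.0). One kept cell of library 073 held 40.8% of its Isg15 UMIs, so this gene is less evenly spread than those that follow. Ifit3, which binds viral RNA together with Ifit1, stood at 24.7 CPM in library 020, 124 CPM in library 073 and 5.64 CPM in library 019, 22.0-fold higher in library 073 than in 019 (11.7 to 46.6). Ifit1 was at 16.9, 75.6 and 5.08 CPM in libraries 020, 073 and 019, and Oasl2, of the 2'-5' oligoadenylate synthetase family, at 19.5, 70.7 and 5.64 CPM. In cells thinned to 2000 UMIs the library 020 ratios of Ifit1 and Oasl2 were not past the limit (log2 ratios 1.51 and 1.19). In each of these genes library 073 was highest and 019 lowest, and library 073 lay above 020 by 4.19-fold for Isg15 (2.75 to 6.63) and 5.02-fold for Ifit3 (3.53 to 7.30). Reads of Ifit3 and its near-identical copy Ifit3b (11.7, 97.1 and 2.26 CPM) may be split between them, as may those of the class I genes of the H2 family.

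Bst2, or tetherin, holds budding virus at the cell surface. It stood at 55.4 CPM in library 020, 199 CPM in library 073 and 19.2 CPM in library 019, which is 2.88-fold (1.92 to 4.43) and 10.4-fold (7.28 to 15.2) over library 019. After each cell was thinned to 2000 UMIs, Bst2 was detected in 8.42% of cells of library 020, 26.1% of library 073 and 5.77% of library 019. The removed cells, treated likewise, had it in 5.26% (library 020) and 6.34% (library 073). In library 073 the share is above that of the removed cells of the same library. In thinned cells Bst2 was past 2-fold in library 073 and not in library 020, where its log2 ratio was 0.85.

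Both Irf9 and Irf7, regulators of the response, were higher in library 073 over 019 and not past the limit in library 020 over 019. Irf9 was at 19.5, 46.7 and 12.4 CPM, and Irf7, which amplifies interferon production, at 7.16, 31.4 and 3.39 CPM in libraries 020, 073 and 019. The intervals of the library 020 ratios include 1 for both (0.878 to 2.86 for Irf9 and 0.717 to 6.97 for Irf7). Library 073 over 020 was 2.39-fold for Irf9 (1.55 to 3.78) and 4.38-fold for Irf7 (2.25 to 9.31). In thinned cells Irf9 was not past the limit in library 073 over 019 either, with a log2 ratio of 0.72.

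Several class I antigen presentation genes were higher in both libraries than in library 019. The 12 such genes of the list summed to 921, 1345 and 400 CPM in libraries 020, 073 and 019. Libraries 018 and 072, at 845 and 705 CPM, lay above library 019 too. B2m, the light chain of class I MHC, stood at 275 CPM in library 020, 379 CPM in library 073 and 58.7 CPM in library 019, a ratio of 4.69-fold (3.78 to 5.87) and 6.46-fold (5.24 to 8.03) over library 019. The heavy chain H2-K1 was at 199, 304 and 72.2 CPM and H2-D1 at 227, 357 and 88.0 CPM in libraries 020, 073 and 019. No single cell held more than 6.00% of the B2m UMIs of libraries 020 and 073. Other parts of the pathway differed little: the peptide-loading protein Tapbp stood at 86.0, 86.1 and 80.7 CPM, the peptide transporter subunit Tap1 at 8.47, 12.9 and 9.03 CPM and the immunoproteasome subunit Psmb8 at 14.3, 19.1 and 13.5 CPM.

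Removed cells carried some of these transcripts at levels above those of the kept ones. B2m, at 275 and 379 CPM in the kept cells of libraries 020 and 073, was at 472 and 671 CPM in the removed ones, and Ifi27, another interferon-induced gene, was at 144 and 247 CPM in kept cells and 409 and 571 CPM in removed ones, with 48.5 CPM in library 019. RNA released by such cells and read in kept ones was not tested as a part of these 2 differences. For H2-K1 the removed cells stood at 102 and 130 CPM, below the kept cells of both libraries, and for Isg15 at 0 and 19.9 CPM. Cells that the authors' table leaves out, 176 of library 020 and 26 of library 073, carried more of the 12 antigen presentation genes of the list, at 12404 and 3072 CPM in sum, where kept cells had 921 and 1345 CPM. The 16 microglia markers were likewise higher in kept cells of library 020, at 654 CPM against 75.6 CPM in library 019. The part of either source in the class I difference was not tested. Without the 8, 8 and 2 cells low in ciliated-cell markers, a choice made after seeing the data, the list had 17 genes higher and 0 lower in library 020, and 26 higher and 0 lower in library 073.

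Cell by cell, the signal had a different shape in the 2 libraries. In cells thinned to 2000 UMIs, the 12 antigen presentation genes gave a mean of 1.81 UMIs in library 020, 2.76 in library 073 and 0.811 in library 019. Over the other 33 genes, split off after their values were seen, the median cell had 2 UMIs in library 020, 4 in library 073 and 2 in library 019. The share of cells with at least 5 such UMIs was 23.4% in library 020, 42.7% in library 073 and 21.2% in library 019, while removed cells had 8.77% (library 020) and 14.1% (library 073). The 90th percentile of cells was 7, 15 and 6 UMIs in libraries 020, 073 and 019, and the highest cell had 37, 42 and 17. Library 073 thus had a longer tail of cells rich in these transcripts, and library 020 lay close to 019. Much of this score is Ifitm3, a membrane protein that blocks virus entry, at 1062, 1718 and 1069 CPM in libraries 020, 073 and 019. In the other libraries 018 and 072, Ifitm3 was at 3876 and 3892 CPM and 83.0% and 83.2% of kept cells passed 5 UMIs, yet Isg15 was at 7.88 and 9.02 CPM and Ifit3 at 22.5 and 38.9 CPM, below library 073.

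**Figure D2:**
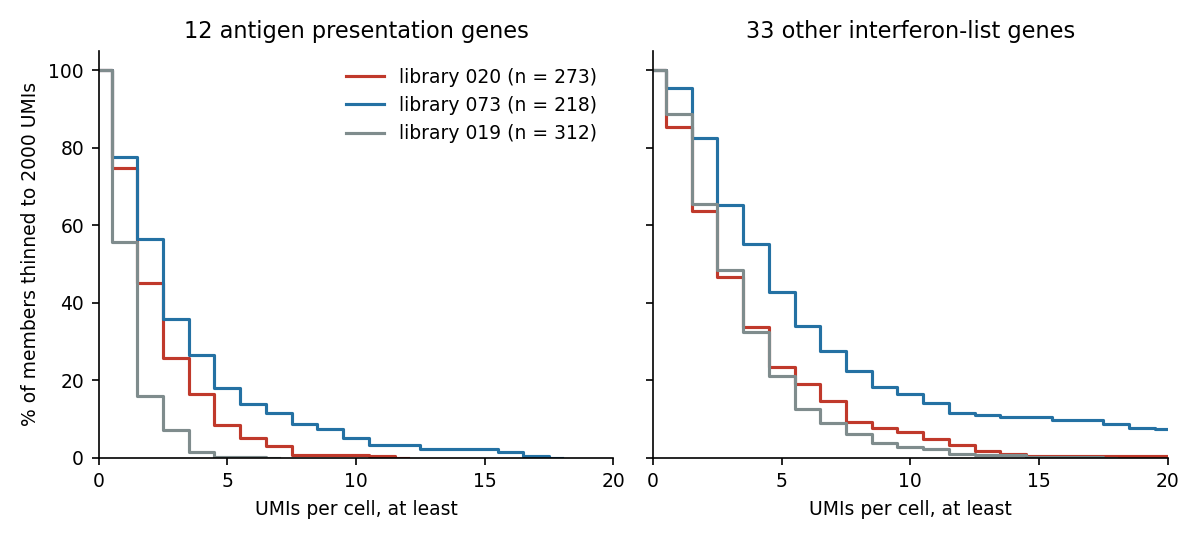
Share of kept cells (%) with at least a given number of UMIs of the 12 antigen presentation genes (left) or the other 33 interferon-list genes (right), each cell thinned to 2000 UMIs, in libraries 020 (273 cells), 073 (218 cells) and 019 (312 cells). On the right, library 073 lies above the other libraries at 5 UMIs, with 42.7% against 23.4% in library 020 and 21.2% in library 019.

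The ciliary machinery differed little in its median ratios. Over all genes, 2.61% were higher and 0.676% lower in library 020, and 6.98% and 1.16% in library 073. By those shares, a list of this size can hold few or no genes past the limit. Of 35 genes of the axonemal dynein arms (the motors that bend cilia) and their assembly, 0 were past the limit in either direction in library 020 or in library 073 over 019, and the medians of their log2 ratios were -0.16 and 0.10. The same held for 41 genes of intraflagellar transport, which builds cilia, with medians of -0.10 and -0.0045. Of 58 radial spoke, tektin and CFAP genes, 0 were past the limit in library 020, and 1 was higher and 2 lower in library 073. Foxj1 stood at 238, 318 and 244 CPM in libraries 020, 073 and 019. In library 073 the cilia regulators Rfx4 (85.3, 57.2 and 116 CPM in libraries 020, 073 and 019) and Trp73 (15.6, 9.83 and 19.8 CPM) just passed 2-fold lower, and neither did without the cells low in ciliated-cell markers. Of 76 nuclear-encoded respiratory chain genes 0 were past the limit in either comparison, and of 81 ribosomal protein genes 0 were in library 020 and 1 was higher in library 073, or 0 without those cells. Scaling by TMM factors would shift all ratios of library 073 over 019 down by 0.12 on the log2 scale, and those of library 020 over 019 by 0.0050.

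Among genes of ependymal identity and secretion, 25 were measured and most did not pass the limit. Vtn, the matrix and plasma protein vitronectin, is also on the list of pericyte and smooth muscle markers. It was lower in both libraries, at 8.47 CPM in library 020, 3.69 CPM in library 073 and 37.2 CPM in library 019. Those are 13, 6 and 66 UMIs, and 1 cell held most of the UMIs of libraries 020 (61.5%) and 073 (66.7%). After thinning, Vtn was detected in 0.366%, 1.38% and 0.962% of cells, so the difference in sums does not appear as a difference in how many cells had it. Without the 5% of cells with most UMIs, the log2 ratio of library 020 over 019 was 0.60. Igfbp2, which binds insulin-like growth factors, was at 165, 75.0 and 182 CPM in libraries 020, 073 and 019, lower in library 073 (0.411-fold of library 019, 0.331 to 0.508). Mia, a protein secreted by cartilage, was at 207, 465 and 150 CPM, higher in library 073 (3.10-fold, 2.69 to 3.57), and stood at 2191 and 2038 CPM in libraries 018 and 072.

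Reactive glia raise intermediate filaments and a set of S100 and galectin proteins. Of 21 such genes, 8 were higher and 1 lower in library 020 than in 019, with a median log2 ratio of 0.58. In library 073, 8 were higher and 0 lower, with a median of 0.53, or 8 and 1 with a median of 0.26 without the cells low in ciliated-cell markers. In thinned cells, where 16 of the genes were compared, the medians were 0.024 in library 020 and 0.36 in library 073. With cells weighted equally they were 0.52 and 0.19. Among all genes, 2.61% were higher and 0.676% lower in library 020, and 6.98% and 1.16% in library 073. Gfap, the astrocyte filament protein, was at 26.7 CPM in library 020, 58.4 CPM in library 073 and 5.64 CPM in library 019, which is 4.73-fold (2.33 to 10.6) and 10.3-fold (5.39 to 22.3) over library 019. In thinned cells few had Gfap: 3.30% in library 020, 6.42% in 073 and 0.962% in 019, with 16.3% and 6.96% in libraries 018 and 072. The list's genes summed to 3142, 3477 and 2734 CPM in libraries 020, 073 and 019, and to 6115 and 5689 CPM in 018 and 072. In libraries 020 and 073 they summed to 1772 and 1502 CPM in the removed cells. Cells left out of the authors' table had 17716 and 8544 CPM. The removed cells were at 35.3 and 13.5 CPM for Gfap, above the kept cells in library 020 and below them in library 073. Nes (nestin, a filament of progenitors) was at 11.1, 12.3 and 3.95 CPM, while Vim (vimentin) was at 811, 1172 and 797 CPM and passed the limit in neither library. Without the 5% of cells with most UMIs, Nes was past the limit in neither library, with log2 ratios of 1.22 and 1.39. In library 073, Nes was also not past it under a stricter rule for removing cells (1.4) or with no cell removed (1.15). S100a6 was at 90.5, 31.4 and 7.34 CPM and Lgals1 at 167, 54.1 and 10.7 CPM in libraries 020, 073 and 019, but 39.6% and 52.9% of their UMIs in library 020 came from 1 cell each. In library 020, S100a6 was at 53.1 CPM and Lgals1 at 44.9 CPM without the cells low in ciliated-cell markers. The removed cells of that library were higher still, at 693 CPM for S100a6 and 337 CPM for Lgals1. Spp1 (osteopontin) was at 171, 22.7 and 1.13 CPM, and at 149 and 25.7 CPM in the removed cells, close to the kept ones.

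Complement, the cascade that tags targets for removal, was split. Of 11 measured genes 6 were higher and 1 lower in library 020, and 4 higher and 1 lower in library 073. The shares over all genes were 2.61% and 0.676% in library 020, and 6.98% and 1.16% in library 073. Without the cells low in ciliated-cell markers 4 and 2 were higher. C1qa, C1qb and C1qc, which microglia make, had 123, 122 and 73 UMIs in library 020, 0 each in library 073 and 2, 1 and 2 in library 019. In library 020 they stood at 80.1, 79.5 and 47.5 CPM in the kept cells and 86.2, 86.2 and 37.2 CPM in the removed cells, which are close. C4b, a component that astrocytes and oligodendrocytes also make, was at 6.51, 32.6 and 2.82 CPM in libraries 020, 073 and 019, with 161 and 425 CPM in the removed cells.

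Of the heat shock proteins and other chaperones, which help proteins fold, several were higher in library 073. Of 24 genes, 7 were higher and 0 lower in library 073 over 019 (median log2 ratio 0.60), and 1 was higher and 0 lower in library 020 (median -0.11). Scaled by TMM factors, Hspb1 and Hspd1 were no longer past the limit in library 073, with log2 ratios of 0.93 and 0.94. Hspa8, the constitutive member of the Hsp70 family, was at 1358 CPM in library 020, 3354 CPM in library 073 and 1392 CPM in library 019, a ratio of 2.41-fold for library 073 over 019 (2.30 to 2.53). Hspb8, a small heat shock protein, was at 13.02, 66.4 and 10.7 CPM, and Hsph1, of the Hsp110 family, at 99.0, 258 and 99.3 CPM. Libraries 020 and 019 lay together in each of these 3 genes, and library 073 lay apart. Library 073 was also above 019 for the glycolytic enzyme Pgk1, at 68.4, 207 and 44.0 CPM in libraries 020, 073 and 019 (4.69-fold, 3.66 to 6.08). Of 24 genes of glycolysis, 3 were higher and 1 lower in library 073, and Gapdh, another enzyme of the pathway, was at 1607, 1363 and 1553 CPM. The shares over all genes were 6.98% higher and 1.16% lower in library 073, and 2.61% and 0.676% in library 020.

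Immediate early genes are transcribed within minutes of a stimulus. Of 21 measured, 0 were higher and 3 lower in library 020 than in 019, with a median log2 ratio of -0.60. Among all genes, 2.61% were higher and 0.676% lower in library 020, and 6.98% and 1.16% in library 073. Btg2, an anti-proliferative gene, was lower in both libraries, at 186 CPM in library 020, 169 CPM in library 073 and 374 CPM in library 019. Fos was at 613, 626 and 1218 CPM, just short of the 2-fold limit in library 020 (0.503-fold, 0.466 to 0.544). Library 073 had 3 higher and 1 lower with a median of 0.0057, yet 1 cell held 50.0% of its Fosb UMIs, and 50.4% of the Ier3 UMIs were likewise in 1 cell. Without the cells low in ciliated-cell markers, library 073 had 0 higher and 8 lower, with a median of -0.65. Ackr3, a scavenging receptor of the chemokine Cxcl12, was lower in both libraries too, at 11.1, 17.2 and 36.1 CPM in libraries 020, 073 and 019. In library 073 it was not past the limit with cells weighted equally (log2 ratio -0.92) or in thinned cells (-1.12). Btg2 lay at the limit in library 020, with a log2 ratio of -1.01, or -0.99 without the cells low in ciliated-cell markers.

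Hox genes record the position of a cell along the body axis. Of 25 genes, 0 were past the limit in library 020. In library 073, 4 were lower and 1 was higher, where 1.16% of all genes were lower and 6.98% higher. Hoxc10 was at 13.02, 3.69 and 17.5 CPM in libraries 020, 073 and 019, Hoxd9 at 18.2, 6.15 and 26.0 CPM, Hoxa10 at 22.8, 11.1 and 33.9 CPM, and Hoxc4 at 65.1, 31.4 and 70.5 CPM. In thinned cells Hoxc10, Hoxd9 and Hoxa10 were not past the limit, with log2 ratios of -2.80, -1.48 and -0.63, and under a stricter rule for removing cells Hoxc4 was not, at -0.94. These are levels within kept cells, with no label for the segment that was taken.

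Of the astrocyte and glial transport genes, 30 were measured, with 2 higher and 1 lower in library 020 and 3 higher and 0 lower in library 073, where 6 were higher without the cells low in ciliated-cell markers. Without them, 0 were lower in library 020. Over all genes and kept cells, 2.61% were higher and 0.676% lower in library 020, and 6.98% and 1.16% in library 073. Kcnj10, an inward-rectifier potassium channel of glia, was at 165, 379 and 130 CPM in libraries 020, 073 and 019 (2.91-fold in library 073, 2.50 to 3.40). The water channel Aqp4 was at 905, 1207 and 648 CPM and the lipid carrier Apoe at 6482, 4888 and 3414 CPM, neither past 2-fold in either library. Sparc, a matrix-binding glycoprotein, was at 876, 1011 and 431 CPM, past 2-fold in both. In library 020 it lay at the limit. Its log2 ratio there was 0.98 without the cells low in ciliated-cell markers and 0.97 without the 5% of cells with most UMIs. It was 0.995 with median-of-ratios factors and 0.68 with no cell removed. After thinning, Sparc was detected in 61.2%, 79.8% and 42.9% of cells in libraries 020, 073 and 019.

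Transcripts of the oligodendrocyte lineage remained in the kept cells, at low levels. The rule used Mag, Mog, Cldn11, C1ql1 and Pdgfra, so their values only describe it. Olig2 had 12 UMIs in library 020, 29 in library 073 and 5 in library 019, and 0 in libraries 018 and 072. These are 7.81, 17.8 and 2.82 CPM, and the ratio was 2.77-fold for library 020 (0.908 to 10.0) and 6.32-fold for library 073 (2.42 to 20.9) over library 019. In library 073, 1 cell held 37.9% of the Olig2 UMIs, and the level was 9.56 CPM without the cells low in ciliated-cell markers. The removed cells were at 99.9 CPM in library 020 and 185 CPM in library 073. Olig1 had 11, 34 and 16 UMIs in libraries 020, 073 and 019, with 81.8% of those of library 020 in 1 cell, and was at 1.36, 14.7 and 0.566 CPM without the cells low in ciliated-cell markers.

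Of 28 measured myelin genes 11 were higher and 0 lower in library 020, and 19 higher and 0 lower in library 073, with median log2 ratios of 1.00 and 1.70. Over all genes, 2.61% were higher and 0.676% lower in library 020, and 6.98% and 1.16% in library 073. The medians were 0.30 and 0.99 under a stricter rule for removing cells, and 0.56 and 0.82 in thinned cells. Mbp, a main myelin protein, was at 142, 157 and 54.7 CPM in libraries 020, 073 and 019, and 1 cell held 75.2% of the UMIs of library 020. Without the cells low in ciliated-cell markers its log2 ratio in library 020 was -0.63. The rule that removed cells used 3 genes of this list, so the list's difference between the libraries is a description. How much of the kept cells' level was RNA of the removed ones was not tested.

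**Figure D3:**
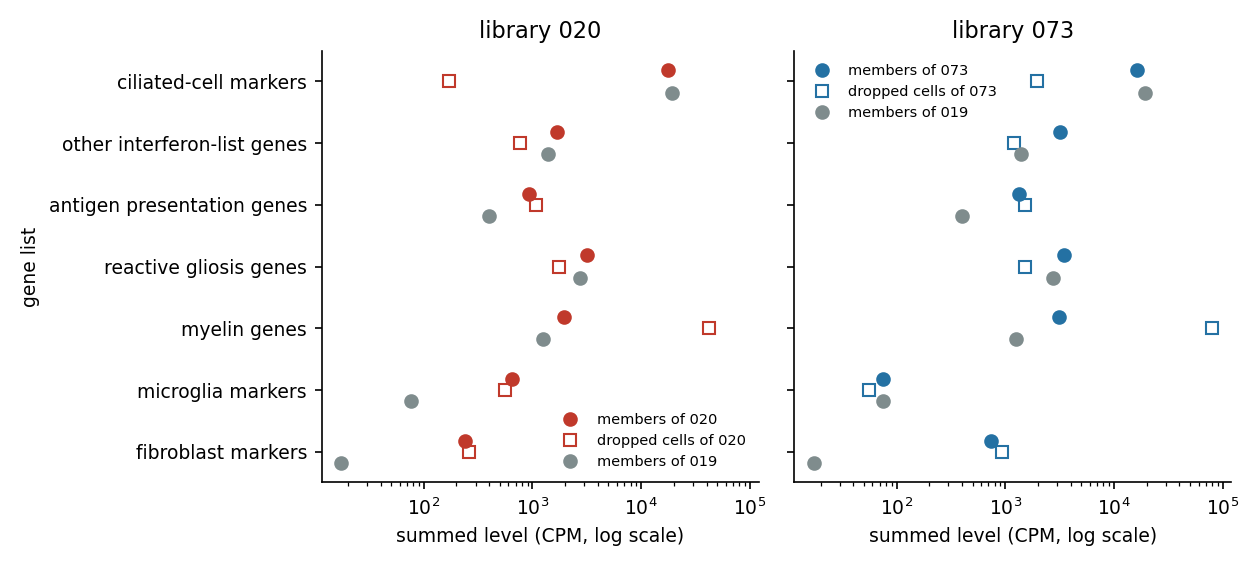
Summed level (CPM, log axis) of 7 gene lists in kept cells (filled circles) and removed cells (open squares) of libraries 020 (left) and 073 (right), with kept cells of library 019 in grey. Myelin genes are far higher in removed cells (1932 and 3139 CPM in kept cells, 42143 and 78925 CPM in removed ones), ciliated-cell markers are far lower, microglia markers are about level, and the fibroblast sum of kept cells of library 020 (237 CPM) is mostly 1 cell and falls to 39.5 CPM without the cells low in ciliated-cell markers.

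Markers of other cell types differed between the libraries as well. All 16 microglia markers were detected in library 020, where they summed to 654 CPM, against 75.0 CPM in library 073 and 75.6 CPM in library 019, where 11 and 7 of the 16 were at 0. Removed cells of library 020 had 556 CPM. Fibroblast markers summed to 237, 732 and 17.5 CPM in libraries 020, 073 and 019, with 2, 4 and 7 of 11 at 0, and to 262 and 927 CPM in the removed cells of libraries 020 and 073. In library 020, 1 kept cell held 82.7% of the fibroblast UMIs. Without the cells low in ciliated-cell markers the sums were 39.5, 718 and 16.97 CPM, and 18.3% of all kept cells of library 020 had such a UMI, where 55.9% of its removed cells did. Erythrocyte markers summed to 18088, 2981 and 0 CPM, with all 6 at 0 in library 019, and to 125, 51.6 and 0 CPM without the cells low in ciliated-cell markers. Endothelial markers summed to 22.8, 109 and 18.1 CPM, with 9, 0 and 8 of 12 at 0. Without those cells they summed to 17.7, 19.1 and 18.1 CPM, and the 1 endothelial gene that was higher in library 073 no longer was.

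These markers head the ranking by ratio. Of the 14 genes with the highest ratios in both libraries, 4 encode hemoglobin chains, which red cells carry. Those 4 genes had 27689 UMIs in library 020, 4822 in library 073 and 0 in library 019, and 2 cells of library 020 held 17032 and 10469 of the first sum, while 1 cell held 95.2% of the second. The bone proteins Bglap and Bglap2 had 72 UMIs in library 020, 1047 in library 073 and 0 in library 019. They were spread evenly over library 073, in 98.2% of its kept cells and 98.6% of its removed cells. Col1a1, a chain of fibrillar collagen, was at 67.7, 286 and 0 CPM, at least 40.0-fold and at least 169-fold over the limit of 3 UMIs in library 019, and at 280 CPM in the removed cells of library 073. In library 020 it was at 8.17 CPM without the cells low in ciliated-cell markers. In library 020, S100a8, S100a9, Camp and Ngp, which neutrophils make, had 6408 UMIs of which 99.2% came from 1 cell. Counts of genes past the limit included these: without the cells low in ciliated-cell markers, 229 genes were higher (2.38%) and 57 lower (0.593%) in library 020, and 603 were higher (6.28%) and 125 lower (1.3%) in library 073.

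Set against each other, library 073 had 491 genes higher than library 020 (5.11% of 9609) and 160 lower (1.67%). Of the 5 with the highest ratio, Bglap is described above, and Vps8, a subunit of an endosomal tethering complex, was at 81.8 CPM in library 073 and 3.91 CPM in library 020. The other 3, Hist1h2al, Gm5900 and Gm10036, belong to families or pseudogenes with near-identical copies, so their counts are uncertain. The 5 with the lowest ratio were S100a8, Lyz2, S100a9, Camp and Ngp. Lyz2, a lysozyme of microglia and other myeloid cells, was at 0.615 CPM in library 073 and 550 CPM in library 020, and at 409 CPM in the removed cells of library 020.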

How the data were processed

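Cells came from a matrix of whole-number UMI counts per gene and cell deposited by the authors, already filtered, and from the authors' deposited cell table, which gave each cell's library code and UMI count. The submitters' processing notes name Cell Ranger and mm10 without versions or settings. Cells labelled ependymal came from digested spinal cord by flow cytometry, per the labels' protocols. Of 3500 cells and 27998 genes, 362 columns without a library code were not used. The bulk RNA and chromatin data were not analysed here.

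The cells, gene lists and comparisons were chosen with earlier results of these data known. Counts were summed over the kept cells of each library and given as CPM, scaled to 1000000, with exact Poisson intervals. Ratios carry exact conditional (Clopper-Pearson) 95% intervals. PCR copies are collapsed by UMIs, and intervals cover counting error only. With 1 library on each side there is no test. Genes with at least 30 UMIs over the 3 libraries entered (9609), and a library at 0 was set to 3 UMIs as a limit. The code was tested on simulated counts. Genes were named by rank (the 14 highest and lowest past the fold in both libraries with at least 100 UMIs, 5 either way between libraries 073 and 020) and up to 4 members of each of 51 lists. Others were picked after their values were seen, including the split of the interferon list. A few genes are left out of the text. No clustering and no doublet caller were run. Alternatives were 10 planned ones and 1 added later, with edgeR 4.0.16 used only for TMM and median-of-ratios factors. Tools were Python 3.11.15, numpy 2.4.6, pandas 2.3.3, scipy 1.17.1 and R 4.3.3.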

Additional observations from a re-analysis of the deposited data

Results flagged for a closer look

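Some signals stood outside the cells compared, in cells that the authors' table leaves out. Kept cells of library 020 held a median of 5.73 UMIs of the 16 microglia markers per 10000 UMIs, and 176 cells left out held 329. Kept cells of library 073 held a median of 6.76 UMIs of Bglap and Bglap2 per 10000, and 26 cells left out held 1505. Kept cells of library 019 held a median of 0 UMIs of the microglia markers per 10000, and 3 cells left out held 385.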

How the results depend on the processing

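No paired analysis was possible because each code is 1 library and the codes carry no replicate number. In the order higher and lower for library 020 over 019, then for library 073 over 019, then for library 073 over 020, the counts past the limit were 251, 65, 671, 111, 491 and 160. With a floor of 100 UMIs they were 79, 16, 237, 43, 181 and 61, since fewer genes were compared. Scaled by TMM or by median-of-ratios factors, 539 were higher and 163 lower in library 073 over 019. With no floor, 406 were higher in library 020 over 019 and 259 lower in library 073 over 020. With cells weighted equally, 100 were lower in library 020 and 170 in library 073. In thinned cells 6126 genes were compared, and 140, 318 and 248 were higher in the 3 comparisons. Of these, 57, 182 and 137 were also higher before thinning. In the same order 58, 85 and 118 were lower in thinned cells, of which 11, 27 and 44 were also lower before thinning. With no cell removed, 1371 were higher and 120 lower in library 020, 2329 higher and 469 lower in library 073, and 859 higher in library 073 over 020.

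Median log2 ratios that moved by over 0.25 are given here, and the cause was not tested. With a floor of 100 UMIs, library 020 had 1.42 for interferon, 0.32 for gliosis and 0.35 for matrix genes, and library 073 had 1.20 for myelin and 0.70 for matrix genes. With no floor, library 020 had -0.33 for immediate early genes. With cells weighted equally, myelin had 0.56 in library 020 and gliosis 0.19 in library 073. In thinned cells library 020 had 0.024 for gliosis, -1.03 for immediate early, 0.56 for myelin and 0.56 for matrix genes, and library 073 had -0.26, 0.82 and 0.56 for the last 3. With no cell removed, dynein genes had -0.51 and -0.67, axoneme genes -0.55 and -0.86 and myelin genes 3.92 and 6.06 in libraries 020 and 073, with -0.28 for immediate early and 1.57 for matrix genes in library 073. With a stricter rule myelin had 0.30 and 0.99. Without the 5% of cells with most UMIs, library 020 had 0.34 for myelin and 0.44 for matrix genes, and without cycling cells 0.71 for myelin. Without the cells low in ciliated-cell markers, library 020 had 0.52 for myelin and 0.38 for matrix genes, and library 073 had 0.26 for gliosis and -0.65 for immediate early genes.

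Of single genes, Tagln in library 073 over 019 turned to -0.48 in thinned cells, -0.10 under the stricter rule and -0.18 without the 5% of cells with most UMIs. In library 020 over 019, Mbp turned to -0.62 under the stricter rule and -0.63 without the cells low in ciliated-cell markers, Igfbp7 to -0.22 without those cells, and Vtn to 0.60 without the 5% of cells with most UMIs. The added alternative was chosen after seeing the data. Genes with few UMIs are limited by depth: a gene with 5 UMIs, such as Isg15 in library 019, gives a ratio of 6.23 for library 020 with an interval from 2.37 to 20.7.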

Other observations

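Among cell cycle genes, 23 were measured, of which 7 were higher and 0 lower in library 073 than in 019. Without the cells low in ciliated-cell markers the count was 1 higher and 0 lower. In library 020, 3 were higher and 0 lower. Of 31 measured genes of cholesterol synthesis, uptake and export, 2 were higher in library 020 and 3 in library 073, with 0 lower in either. Of all genes compared, 2.61% were higher and 0.676% lower in library 020, and 6.98% and 1.16% in library 073. Abcg1, which exports cholesterol, was at 8.47, 9.83 and 1.69 CPM in libraries 020, 073 and 019. The Y-linked Ddx3y had 47, 57 and 49 UMIs in libraries 020, 073 and 019.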
